A study of Mus musculus with 18 samples.

Results

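The 9 genes described here, Adamts1, Adamts2, Adamts4, Adamts5, Adamts8, Adamts9, Adamts10, Adamts12 and Adamts15, encode secreted ADAMTS metalloproteinases of the mouse. They were taken by gene symbol from the RefSeq gene matched to each array probe, and together they were read by 17 of the 41174 probes on the array. All 9 genes and all 17 probes passed the filter on dim probes and stand among the 17928 genes that entered the statistical fit. Adamts2 was read by 3 probes, Adamts4 and Adamts15 by 1 each, and the other 6 genes by 2 each. The 9 were chosen by symbol out of the larger family with their measured log2 levels in the same 4 groups of arrays already known, so their own values are given as a description, and no test here is independent of that choice.

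The arrays profiled 18 samples of thyroid RNA from C57BL/6 mice at an age of 1 month, 1 array per sample. Wild-type (WT) mice and Glis3KO2 (KO2) mice, in which the gene for the transcription factor Glis3 is targeted, were kept on a normal NIH31 diet (5 samples each) or on a low-iodine Harlan diet for 6 days (4 samples each). The sex of the mice, the deleted part of Glis3 and whether the deletion is limited to some tissues are not given in the sources used here. The comparison of genotypes on each diet asks which thyroid transcripts depend on Glis3 at rest and when iodide, the substrate of thyroid hormone, is short.

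ADAMTS proteases carry a zinc-dependent catalytic domain and thrombospondin repeats that hold them in the extracellular matrix, where they cut matrix proteins. One branch of the family, with Adamts1, Adamts4, Adamts5, Adamts8, Adamts9 and Adamts15 among its members, is known for cleaving the large hyaluronan-binding proteoglycans versican and aggrecan, and Adamts1 and Adamts8 are also known for restraining blood vessel growth. Adamts2 removes the amino-terminal propeptide of fibrillar procollagens, Adamts10 associates with fibrillin microfibrils, and Adamts12 cleaves cartilage oligomeric matrix protein. In the thyroid, this matrix surrounds the hormone-producing follicles and the dense capillary network that supplies them.

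The share of spots that stood clear of background ran from 60.1% to 90.6% over the arrays, whose number sets how precise any difference can be. Low-iodine WT replicate 2 stood apart, with a median signal of 191 against 61.6 to 85.7 on the other low-iodine arrays. The follicular cell markers Tg, Tshr, Pax8, Nkx2-1 and Foxe1 were well above background on all 18 arrays. The single Glis3 probe ranged from −6.08 to −4.78 in WT and −5.46 to −4.16 in KO2 on the normal diet, and from −1.60 to −0.74 in WT and −4.06 to −1.49 in KO2 on low iodine. Whether this probe lies in the deleted part is unknown, so it does not check the labels. Normal-diet arrays lay on slides 1 to 3 and low-iodine arrays on slides 4 and 5, scanned on another instrument, so a difference between diets cannot be told apart from one between these sets. Each slide held equal numbers of both genotypes.

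On the low-iodine diet 5 of the 9 transcripts, Adamts2, Adamts4, Adamts8, Adamts9 and Adamts12, were lower in KO2 than in WT thyroid past an adjusted p of 0.05, and 0 were higher, against 7.16% and 7.80% of all genes. Adamts8 fell by 5.88 on the log2 scale, a 58.9-fold difference on its brightest probe and 18.1-fold on its second. The other 4 were between 3.18-fold and 3.71-fold lower on their brightest probes. None of the 9 passed it on the normal diet, where 1.41% of all genes did. The fit was limma's linear model over all 18 arrays, with p-values adjusted over all 17928 genes by the Benjamini-Hochberg method. In either direction 15.0% of all genes passed on low iodine. The median difference of the 9 was −1.67 on low iodine, where that of all genes was −0.02, and 0.16 on the normal diet, where that of all genes was 0.04. Levels below are log2 signals relative to the array's 75th percentile, so that a level of 0 equals that percentile, and every difference is KO2 minus WT on the log2 scale given with its standard error (SE).

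**Figure D1:**
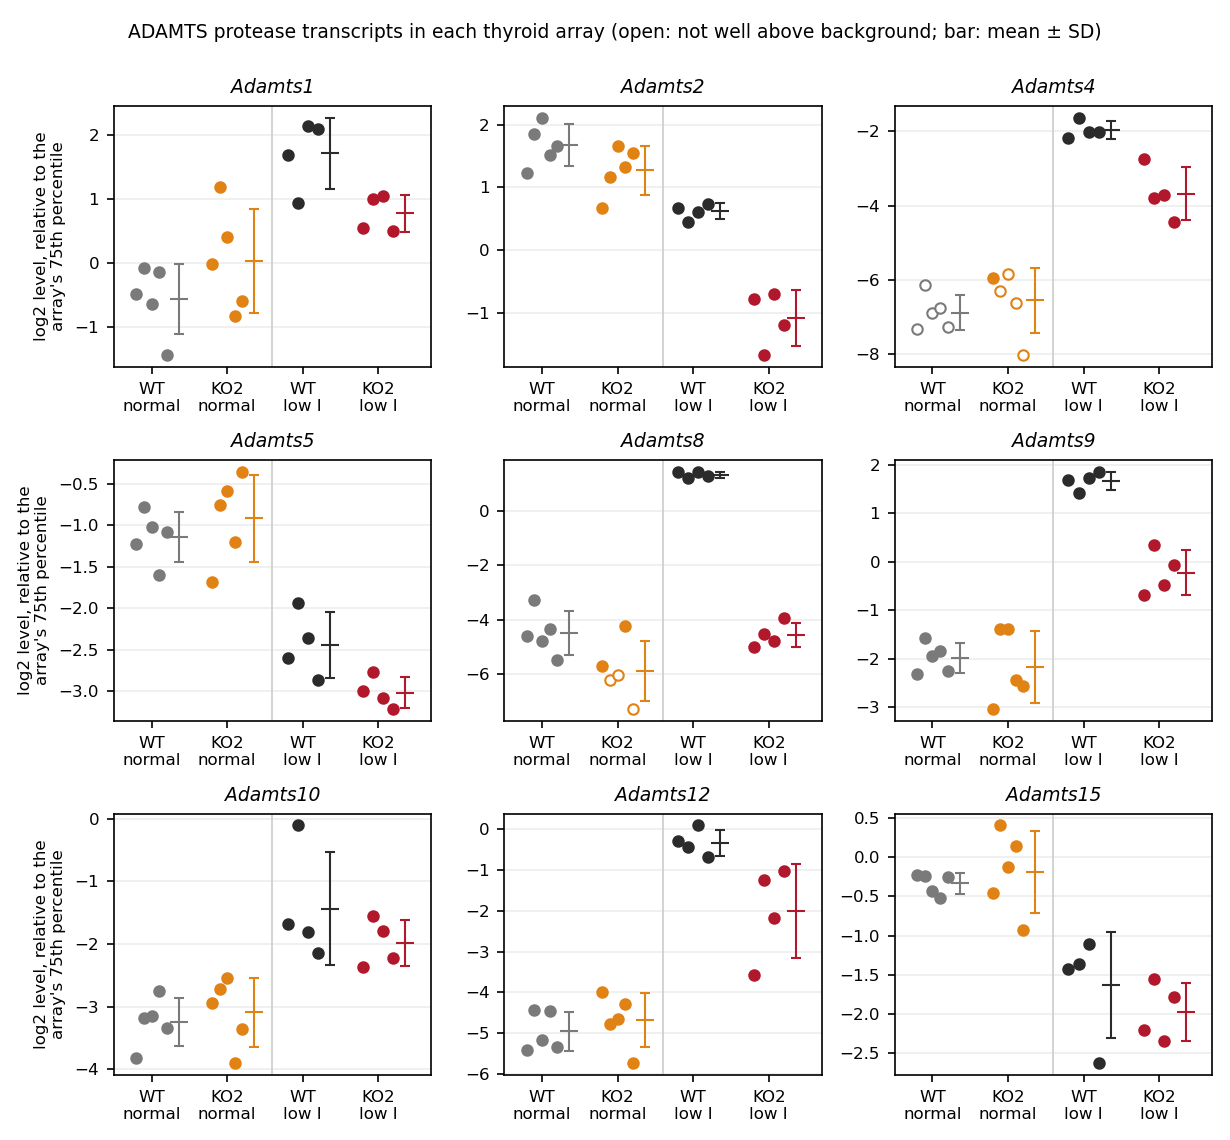
Log2 level, relative to each array's 75th percentile, of the brightest probe of each of the 9 genes, with 1 point per array in WT and KO2 thyroids on the normal diet (5 arrays each) and the low-iodine diet (4 arrays each); open points are not well above background and bars give mean ± SD. The low-iodine WT points of Adamts2, Adamts4, Adamts8, Adamts9 and Adamts12 lie above all 4 low-iodine KO2 points, and the normal-diet groups overlap for every gene.

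Upstream sequence was available for 4 of the 9, and all 4 windows are shown here. Of these genes Adamts2, Adamts9 and Adamts12 passed as lower in KO2 on low iodine. Adamts1 differed there by −0.94 and did not pass. Each window is the 250 bases before the transcription start in RefSeq on GRCm38.p6, written 5′ to 3′ on the gene's strand. Capitals mark matches, on either strand, to motifs searched by their letters: the cAMP response element TGACGTCA, its shorter core TGACG, the AP-1 element TGANTCA, a GLIS element core TGGGGGGT, and TATAAA. The windows are chr16:85803114-85803363 on the minus strand for Adamts1, chr11:50601835-50602084 on the plus strand for Adamts2, chr6:92943535-92943784 on the minus strand for Adamts9 and chr15:11064523-11064772 on the plus strand for Adamts12.
Adamts1: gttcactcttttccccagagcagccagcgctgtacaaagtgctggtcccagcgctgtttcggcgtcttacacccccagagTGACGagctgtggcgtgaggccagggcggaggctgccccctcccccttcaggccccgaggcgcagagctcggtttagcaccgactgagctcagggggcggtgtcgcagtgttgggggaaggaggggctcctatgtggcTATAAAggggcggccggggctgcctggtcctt
Adamts2: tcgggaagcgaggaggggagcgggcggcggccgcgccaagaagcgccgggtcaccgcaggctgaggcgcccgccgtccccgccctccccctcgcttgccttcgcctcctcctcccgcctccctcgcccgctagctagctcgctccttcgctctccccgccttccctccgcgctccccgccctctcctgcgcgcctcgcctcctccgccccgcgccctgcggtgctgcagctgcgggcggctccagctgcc
Adamts9: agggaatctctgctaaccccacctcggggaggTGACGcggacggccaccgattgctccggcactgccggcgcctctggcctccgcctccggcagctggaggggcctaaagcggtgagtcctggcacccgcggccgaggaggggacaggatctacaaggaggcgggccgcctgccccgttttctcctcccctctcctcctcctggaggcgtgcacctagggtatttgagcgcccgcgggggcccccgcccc
Adamts12: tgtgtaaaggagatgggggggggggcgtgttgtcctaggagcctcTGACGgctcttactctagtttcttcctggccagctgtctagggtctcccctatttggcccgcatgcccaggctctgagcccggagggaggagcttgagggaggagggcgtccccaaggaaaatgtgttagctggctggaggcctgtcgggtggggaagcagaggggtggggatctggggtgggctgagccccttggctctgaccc
The window of Adamts1 held TGACG, whose first base as printed lies 170 bases before the start, and TATAAA at 32 bases before it. TGACG also stood 218 bases before the start of Adamts9 and 205 bases before that of Adamts12. The Adamts2 window held no match and was the richest in G and C of the 4, at 78%, against 63.2% to 71.2% in the others. Among 32851 RefSeq windows of the same length, 17.8% held TGACG, 12.4% TATAAA, 6.75% TGANTCA, 1.55% TGACGTCA and 1.36% TGGGGGGT. A full TGACGTCA also contains the shorter core, and none of the 4 windows held the full form, TGANTCA or TGGGGGGT. These matches describe the letters only.

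Adamts8, a proteoglycan-cleaving protease also known as an inhibitor of angiogenesis, showed the widest separation. Its low-iodine levels, in the order of replicates 1 to 4 as in all such lists here, were 1.42, 1.21, 1.42 and 1.27 in WT thyroid and −4.98, −4.51, −4.77 and −3.94 in KO2 thyroid. The groups did not overlap, and the smallest gap between a WT and a KO2 array was many times the spread within either. WT thyroid averaged 1.33 ± 0.11 (SD, n = 4) and KO2 thyroid −4.55 ± 0.45 (SD, n = 4), a difference of −5.88 ± 0.50 (95% interval −6.95 to −4.81, limma adjusted p = 4.81e-06). All 8 of these arrays were well above background. The KO2 levels were dim, however, on arrays whose lowest signal well above background ran from −5.74 to −4.85. Within slide 4 the difference was −5.78 and within slide 5 it was −5.98. With the normexp background correction, which compresses low signals by an added offset, it was −3.57.

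Adamts8 was dim on the normal diet. WT levels were −4.60, −3.27, −4.79, −4.34 and −5.46, and KO2 levels were −5.70, −6.20, −6.02, −4.22 and −7.29. The 5 WT arrays were well above background, but only 2 of the 5 KO2 arrays (replicates 1 and 4) were, and the groups overlapped through KO2 replicate 4. The difference of −1.40 ± 0.45 did not pass the threshold (95% interval −2.35 to −0.44, limma adjusted p = 0.155, unadjusted p = 0.00672), and within slides 1, 2 and 3 it was −1.61, −1.09 and −1.60. It was −0.10 with the normexp correction. Leaving out KO2 replicate 4, which also had the lowest share of spots above background, gave −1.81 with limma adjusted p = 0.0124. Adamts8 was the only one of the 9 with an unadjusted p under 0.05 on this diet, as 13.2% of all genes had.

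The second Adamts8 probe gave the same picture on low iodine. Its levels were 0.89, 0.78, 0.81 and 0.63 in WT and −3.20, −3.53, −3.55 and −3.31 in KO2, again without overlap, and the difference was −4.17 ± 0.50 (limma adjusted p = 4.22e-05 over 26518 probes). Both probes thus read Adamts8 above the arrays' 75th percentile in every low-iodine WT thyroid and well below it in every low-iodine KO2 thyroid. Its normal-diet difference was −0.32 ± 0.44, less than the spread between arrays, with 4 of 5 WT arrays and 1 of 5 KO2 arrays above background.

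Adamts9, which cleaves versican, was lower in KO2 on low iodine. WT levels were 1.69, 1.40, 1.71 and 1.86 and KO2 levels were −0.70, 0.35, −0.49 and −0.07. The lowest WT array lay above the highest KO2 array, replicate 2. The difference was −1.89 ± 0.33, a 3.71-fold decrease (limma adjusted p = 0.00111), with −1.93 within slide 4 and −1.85 within slide 5. Normal-diet levels ran from −2.32 to −1.57 in WT (median −1.95) and from −3.04 to −1.39 in KO2 (median −2.43), and the difference was −0.18 ± 0.30 with full overlap. Its sign differed between slides there, at 0.92, −0.15 and −0.76 within slides 1, 2 and 3, and leaving out KO2 replicate 1 turned it to 0.04. The second Adamts9 probe, which no normal-diet array showed above background, read a smaller low-iodine difference of −0.76 ± 0.41 with overlapping arrays (limma adjusted p = 0.256), so the probes of this gene disagree on the size.

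Adamts4, known as one of the main aggrecanases, was near background on the normal diet. None of the 5 WT arrays and only KO2 replicate 1 read its single probe well above background, at −7.32, −6.15, −6.89, −6.77 and −7.29 in WT and −5.96, −6.31, −5.85, −6.62 and −8.04 in KO2. These overlapping arrays averaged −6.88 ± 0.47 (SD, n = 5) for WT thyroid and −6.56 ± 0.88 (SD, n = 5) for KO2 thyroid, so no fold is given for that diet. On low iodine all 8 arrays read it, at −2.18, −1.63, −2.03 and −2.02 in WT and −2.74, −3.80, −3.71 and −4.44 in KO2. The groups did not overlap, with KO2 replicate 1 nearest to WT. The difference was −1.71 ± 0.42, 3.27-fold (limma adjusted p = 0.0121), and was −1.69 within slide 4, −1.73 within slide 5 and −0.83 with the normexp correction, under which it also passed.

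Adamts1, a versican-cleaving protease that also restrains vessel growth, did not pass the threshold on either diet. On low iodine its levels were 1.69, 0.93, 2.14 and 2.09 in WT and 0.55, 1.01, 1.06 and 0.50 in KO2. WT replicate 2 lay among the KO2 arrays, and the other 3 WT arrays lay above all of them. The difference was −0.94 ± 0.40 (95% interval −1.78 to −0.09, limma adjusted p = 0.133). Normal-diet WT levels were −0.48, −0.07, −0.63, −0.14 and −1.44, KO2 levels were −0.02, 1.19, 0.42, −0.82 and −0.59, and the difference was 0.59 ± 0.36 with overlap. It was 0.30 without KO2 replicate 2 and 0.37 without WT replicate 5. The second probe differed by −0.69 ± 0.52 on low iodine.

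Adamts5, the other main aggrecanase, and Adamts15, which cleaves versican, were the remaining members of that branch and also did not pass. Adamts5 read −2.60, −1.94, −2.35 and −2.87 in low-iodine WT and −2.99, −2.77, −3.09 and −3.22 in low-iodine KO2. Only WT replicate 4 fell within the KO2 range, and the difference was −0.58 ± 0.27 (95% interval −1.14 to −0.01, limma adjusted p = 0.166). Adamts5 on the normal diet ran from −1.59 to −0.78 in WT and from −1.68 to −0.35 in KO2, a difference of 0.23 ± 0.24 with overlap. Adamts15 read −1.43, −1.36, −1.11 and −2.63 in low-iodine WT and −2.21, −1.56, −2.35 and −1.78 in low-iodine KO2. WT replicate 4 was the lowest of the 8 arrays and the groups overlapped, with a difference of −0.34 ± 0.31 (limma adjusted p = 0.549). Without that array it was −0.67 (limma adjusted p = 0.117), without WT replicate 3 −0.17 and without KO2 replicate 3 −0.22. Normal-diet values ran from −0.52 to −0.23 in WT and from −0.92 to 0.41 in KO2, a difference of 0.14 ± 0.28, which came to −0.01 without KO2 replicate 2.

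Adamts2, the procollagen amino-propeptidase, fell in low-iodine KO2 thyroid on every probe. The brightest probe read 0.67, 0.45, 0.61 and 0.74 in WT and −0.78, −1.68, −0.70 and −1.19 in KO2. All 4 KO2 arrays lay below all 4 WT arrays, and the WT arrays were tightly grouped, at 0.62 ± 0.13 (SD, n = 4) against −1.09 ± 0.45 (SD, n = 4). The difference was −1.71 ± 0.25, 3.26-fold (limma adjusted p = 2.31e-04), and was −1.55 within slide 4 and −1.87 within slide 5. Probes 2 and 3 differed by −2.12 ± 0.32 (limma adjusted p = 3.61e-04) and −1.16 ± 0.36 (limma adjusted p = 0.0421), and of the 3 probes only probe 3 had overlapping arrays. Normal-diet WT thyroid read 1.22, 1.84, 2.11, 1.51 and 1.66 and KO2 read 0.67, 1.17, 1.66, 1.32 and 1.55, with overlap and a difference of −0.40 ± 0.22 (95% interval −0.86 to 0.07, limma adjusted p = 0.471).

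Adamts12, which cleaves cartilage oligomeric matrix protein, was lower in low-iodine KO2 thyroid but varied most there. WT levels were −0.31, −0.46, 0.07 and −0.69 and KO2 levels were −3.57, −1.25, −2.19 and −1.04. The groups did not overlap, although KO2 replicates 2 and 4 were much closer to WT than replicate 1. The difference was −1.67 ± 0.47, 3.18-fold (limma adjusted p = 0.0235), with −1.92 within slide 4 and −1.42 within slide 5. It missed the threshold without KO2 replicate 1 (−1.15, limma adjusted p = 0.0691), without WT replicate 3 (−1.53, limma adjusted p = 0.0662) or without KO2 replicate 3 (−1.61, limma adjusted p = 0.0501). The second probe differed by −1.12 ± 0.40 with overlap (limma adjusted p = 0.0727), and on the normal diet the first probe ran from −5.40 to −4.42 in WT and from −5.72 to −3.99 in KO2, a difference of 0.27 ± 0.42.

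Adamts10, the fibrillin-associated member, was the least clear. On low iodine WT read −1.68, −0.11, −1.81 and −2.14 and KO2 read −2.36, −1.56, −1.79 and −2.23. The KO2 range covered 3 of the 4 WT arrays, and WT replicate 2 alone stood higher. The difference of −0.55 ± 0.39 (limma adjusted p = 0.41) was −1.40 within slide 4, which held that array, and 0.30 within slide 5, and without that array it was −0.11. The second probe had the opposite sign, at 0.14 ± 0.40. Adamts10 on the normal diet ran from −3.81 to −2.75 in WT and from −3.90 to −2.54 in KO2, a difference of 0.16 ± 0.35.

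**Figure D2:**
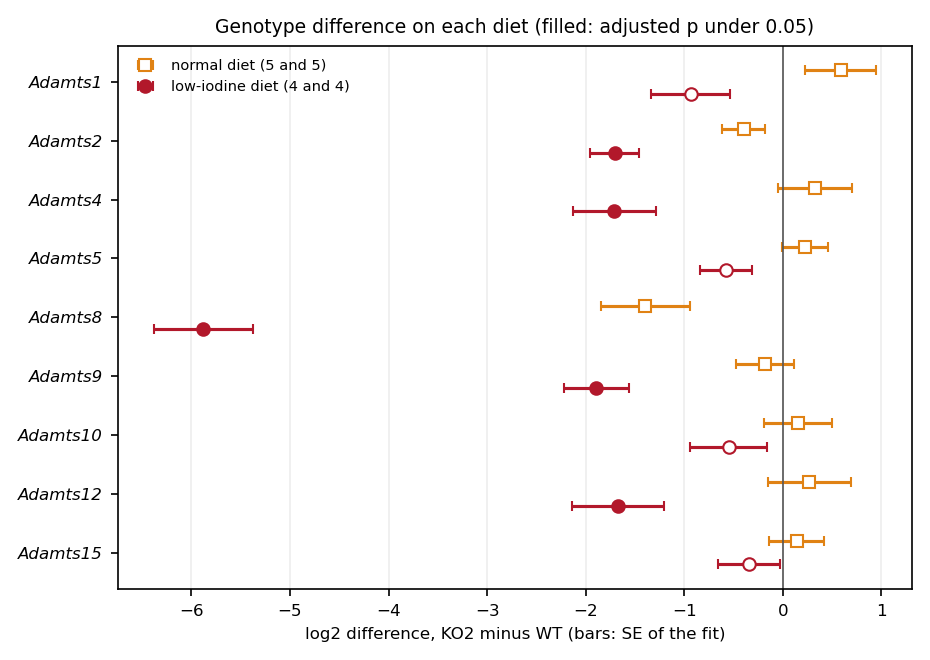
Log2 difference between KO2 and WT thyroid for each of the 9 genes on the normal diet (squares, 5 arrays per genotype) and the low-iodine diet (circles, 4 arrays per genotype), with bars for the SE of the fit; filled symbols have an adjusted p under 0.05. All 9 low-iodine differences are negative and 5 are filled, Adamts8 farthest out at −5.88, and no normal-diet symbol is filled. Adamts4 was not well above background on any normal-diet WT array.

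Counted over the 9, all low-iodine differences were negative, from −5.88 to −0.34, and the arrays of 5 genes did not overlap, where 9.06% of all genes had KO2 arrays wholly below the WT arrays. At an unadjusted p under 0.05 there were 7 of the 9, against 28.2% of all genes. Without low-iodine WT replicate 2, the array with the high median signal, the same 5 genes passed, with Adamts8 at −5.92, Adamts9 at −1.98, Adamts2 at −1.76, Adamts12 at −1.71 and Adamts4 at −1.60. The normal-diet differences were negative for 3 genes and positive for 6, from −1.40 to 0.59, and the arrays of 0 of the 9 stood apart, where those of 3.51% of all genes did. Each of the 5 genes was called on its brightest probe. Over single probes, 13.4% of all probes in the fit passed on low iodine and 7.11% passed as lower.

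**Figure D3:**
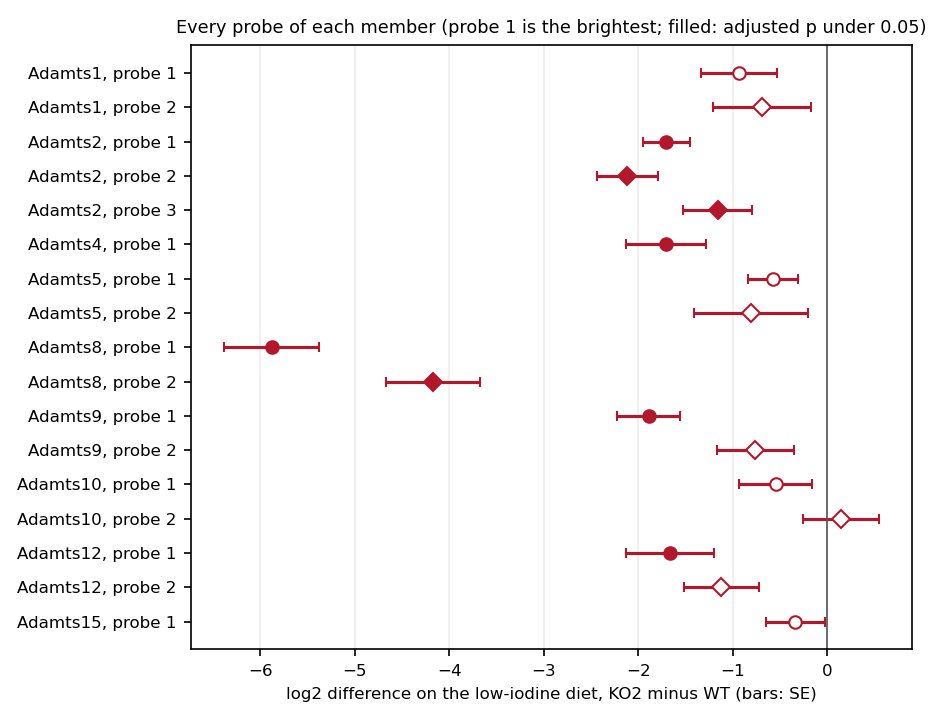
Log2 difference between KO2 and WT thyroid on the low-iodine diet for each of the 17 probes of the 9 genes, with bars for the SE of the fit over single probes; filled symbols have an adjusted p under 0.05, and circles mark the brightest probe of a gene. Both Adamts8 probes (−5.88 and −4.17) and all 3 Adamts2 probes are filled and negative, while the probes of Adamts9, Adamts10 and Adamts12 differ from each other in call or sign.

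The genotype difference was then compared between the diets. This difference of differences was −4.48 ± 0.68 for Adamts8 (95% interval −5.91 to −3.05, limma adjusted p = 0.00488), the only one of the 9 past the threshold, which 1.23% of all genes passed, 0.865% with a negative sign. The normal-diet KO2 levels in this value were below background on 3 of 5 arrays. Its second probe gave −3.85 ± 0.67 (limma adjusted p = 0.00924), where 1.27% of all probes passed. For Adamts9 the value was −1.71 ± 0.44 (limma adjusted p = 0.0723) and for Adamts2 it was −1.31 ± 0.33 (limma adjusted p = 0.0633). Without normal-diet KO2 replicate 1 both passed, at −1.93 (limma adjusted p = 0.0282) and −1.46 (limma adjusted p = 0.0297), which made 3 of 9. Adamts2 also passed with the replicate number as a block (limma adjusted p = 0.0357). Adamts4 gave −2.04 ± 0.57 (limma adjusted p = 0.0928, and 0.0165 without normal-diet KO2 replicate 5), a value that rests on normal-diet levels at background. The other 5 ran from −1.94 for Adamts12 to −0.48 for Adamts15, and all 9 were negative. The 4 genes called on low iodine other than Adamts8 did not pass here, so for them a different effect on the 2 diets was not shown.

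Levels on the low-iodine arrays were also set against those on the normal-diet arrays, although diet cannot be told apart from the slides and scanner, and most genes differed past the threshold. In WT 75.9% did (39.4% higher and 36.5% lower on low iodine), and in KO2 74.4% did (37.5% higher and 36.8% lower). In WT, Adamts8 was 5.82 ± 0.48 higher on the low-iodine arrays, Adamts12 4.60 ± 0.44, Adamts9 3.65 ± 0.31, Adamts1 2.27 ± 0.38 and Adamts10 1.81 ± 0.37. Adamts4 was at least 19.3-fold higher, a bound set by the lowest signal well above background on each normal-diet array. It passed the filter on dim probes only through its low-iodine arrays, so this direction is not independent of the filter. In KO2, Adamts4 was above background on 1 of 5 normal-diet arrays and no difference is given for it. Adamts8, above background on 2 of 5 there, differed by 1.33 ± 0.48, a value that rests on signals mostly at background. The other differences in KO2 were 2.67 ± 0.44 for Adamts12, 1.94 ± 0.31 for Adamts9, 1.11 ± 0.37 for Adamts10 and 0.74 ± 0.38 for Adamts1, of which Adamts1 alone did not pass (limma adjusted p = 0.0867). Adamts2, Adamts5 and Adamts15 were lower on the low-iodine arrays in both genotypes, by −1.05, −1.30 and −1.30 in WT and −2.36, −2.10 and −1.78 in KO2. Other probes did not bear out all of these values. The second Adamts2 probe was 2.48 ± 0.30 higher in WT and 0.85 ± 0.30 higher in KO2, opposite to the brightest probe, and the second Adamts10 probe did not pass in either genotype. The second Adamts1 probe was 5.17 ± 0.49 higher in WT and 4.04 ± 0.49 higher in KO2, and passed in both (KO2 limma adjusted p = 1.08e-06). The second Adamts5 probe, often near background, differed by 0.92 ± 0.57 in WT and 0.11 ± 0.57 in KO2 and passed in neither. Ordered by group mean, low-iodine WT was highest for 6 genes. On the brightest Adamts8 probe the order ran from low-iodine WT to normal-diet WT (−4.49 ± 0.80), low-iodine KO2 (−4.55 ± 0.45) and normal-diet KO2 (−5.89 ± 1.11). The ranges of the last 3 groups overlapped. The second Adamts8 probe read otherwise. Its low-iodine KO2 arrays (−3.55 to −3.20) lay above all normal-diet arrays of WT (−6.54 to −4.19) and KO2 (−6.98 to −4.43). In KO2 that probe was 2.32 ± 0.47 higher on the low-iodine arrays.

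The rest of the family was read from a list of the 10 other ADAMTS proteases, of which 8 entered the fit. Adamts6 was not well above background on 4 arrays, and Adamts17 had no named probe. None of the 8 passed on either diet (limma, with 2 of 8 at an unadjusted p under 0.05 on the normal diet and 1 of 8 on low iodine), and their median difference on low iodine was −0.26. For this and every list below, the shares of all genes stand beside the counts. On low iodine 7.16% fell and 7.80% rose, and 28.2% had an unadjusted p under 0.05. The normal-diet shares were 1.41% past the threshold and 13.2% at an unadjusted p under 0.05. Adamts7, a vascular smooth muscle protease that cleaves cartilage oligomeric matrix protein, differed by −0.84 ± 0.34 on low iodine (limma adjusted p = 0.109), but its second probe differed by 0.30. The procollagen amino-propeptidases related to Adamts2 gave −0.18 ± 0.37 for Adamts3 and 0.02 ± 0.20 for Adamts14, with 95% intervals of −0.95 to 0.59 and −0.41 to 0.44. Adamts13, which cuts von Willebrand factor, differed by −0.91 ± 0.68, Adamts16 by −0.33 ± 0.48, Adamts18 by −0.03 ± 0.55, Adamts19 by −0.80 ± 0.51 and Adamts20 by 0.09 ± 0.24. The other probes of Adamts20 read −0.997 and −0.756, and the second Adamts14 probe read −0.26, with signs opposite to the brightest probes. Adamts13, Adamts18 and Adamts19 were not well above background on all low-iodine arrays. Adamts16 differed by 1.50 ± 0.43 on the normal diet (limma adjusted p = 0.104), while its second probe differed by 0.11. Whether these 8 genes differ from the 9 was not tested, because the 9 were chosen with results known.

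The ADAMTS-like proteins resemble the proteases but lack the catalytic domain, and several bind fibrillin microfibrils. Of 7 measured, 2 fell in KO2 on low iodine, Adamtsl2 by 1.35 on the log2 scale (SE 0.25, limma adjusted p = 0.0017) and Adamtsl1 by 0.75 (SE 0.24, limma adjusted p = 0.0453), and 0 rose. The count was 1 when any of 12 arrays was left out singly: normal-diet WT replicate 2, 3 or 5 or KO2 replicate 2, 3 or 5, or low-iodine WT replicate 2, 3 or 4 or KO2 replicate 1, 2 or 4. Thsd4 differed by −0.83 ± 0.34 (limma adjusted p = 0.122), Adamtsl3 by −0.71 ± 0.39 and Adamtsl5 by 0.59 ± 0.27, while the other 2 Adamtsl5 probes read −0.47 and −0.56, and Papln was not above background on any low-iodine array. None of the 7 passed on the normal diet (limma, 3 at an unadjusted p under 0.05), all 7 differences were negative, and their median was −0.34.

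Proteins that ADAMTS proteases are known to cut or bind were followed as a list of 18 matrix genes. On low iodine 11 of the 18 fell in KO2 and 1 rose, against 7.16% and 7.80% of all genes, with a median difference of −1.11. On the normal diet 4 fell and 0 rose, where 1.41% of all genes passed. The 4 were the collagens Col1a1 (−1.82 ± 0.40), Col1a2 (−1.21 ± 0.25), Col2a1 (−1.92 ± 0.38) and Col3a1 (−2.14 ± 0.44), fibrillar procollagen chains of the kind whose propeptide Adamts2 removes. The count on the normal diet was 1 when WT replicate 3, WT replicate 5 or KO2 replicate 3 was left out, and 1 with the replicate block. On low iodine the same collagens differed by −3.91 ± 0.45, −2.34 ± 0.27, −2.86 ± 0.42 and −3.33 ± 0.50. Other probes of these genes did not all read the same. A second Col2a1 probe differed by −0.13 on the normal diet and by −0.65 on low iodine (limma adjusted p = 0.215). The other Col1a1 probes differed by −0.08 and −1.75 on the normal diet and by −3.54 and −3.97 on low iodine, and a second Col3a1 probe by −1.16 and −3.52.

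Fbn1, the fibrillin of the microfibrils that Adamts10 is associated with, fell by 2.93 (SE 0.36, limma adjusted p = 6.61e-05) on low iodine, and the small proteoglycan biglycan, Bgn, fell by 2.16 (SE 0.24, limma adjusted p = 2.60e-05). Bgn ran from 3.18 to 3.43 in low-iodine WT and from 0.79 to 1.57 in low-iodine KO2, without overlap. Versican and aggrecan, the classical targets of Adamts1, Adamts4, Adamts5, Adamts9 and Adamts15, cartilage oligomeric matrix protein and decorin fall outside the rule for naming genes and are named after their values were seen. Vcan fell by 2.27 (SE 0.39, limma adjusted p = 9.78e-04), from −1.94 ± 0.91 (SD, n = 4) in WT to −4.21 ± 0.60 (SD, n = 4) in KO2, although its 3 probes ranged from −2.92 to −0.67. Comp, the target of Adamts12, fell by 1.98 (SE 0.46, limma adjusted p = 0.0084), with overlapping arrays and 2 of 4 KO2 arrays above background. Acan fell by 0.98 (SE 0.28, limma adjusted p = 0.0237), and Dcn was the 1 gene that rose, by 0.99 (SE 0.23, limma adjusted p = 0.00762). The normal-diet difference of Vcan was −0.21 ± 0.35, that of Bgn −0.30 ± 0.21 and that of Fbn1 −0.61 ± 0.33, none past the threshold.

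The list of inhibitors and processing factors held 14 measured genes, with B3glct lacking a named probe. On low iodine only Timp1, a tissue inhibitor of metalloproteinases, passed, at −1.03 ± 0.23 (limma adjusted p = 0.00626), and the list's median was 0.12. The count was 2 without low-iodine KO2 replicate 4. Timp2, Fbln1 (a cofactor of Adamts1), Sdc4, Furin, which removes the propeptide of the proteases, and Pofut2, which adds fucose to their thrombospondin repeats, differed by −0.19 ± 0.25, −0.90 ± 0.44, 0.16 ± 0.30, 0.35 ± 0.18 and −0.46 ± 0.16. Second probes had the opposite sign for Pofut2 (0.70, limma adjusted p = 0.0663) and for Sdc4 (−0.21). Timp3, the inhibitor best known for blocking Adamts4 and Adamts5 and named after its values were seen, differed by 0.37 ± 0.33 (95% interval −0.32 to 1.06). None of the 14 passed on the normal diet (limma, 5 at an unadjusted p under 0.05), and 1 passed without KO2 replicate 4.

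Hyaluronan, the polysaccharide to which versican and aggrecan bind, was followed through 7 genes. On low iodine 2 fell in KO2, Tnfaip6, a hyaluronan-binding protein, by 2.21 (SE 0.25, limma adjusted p = 3.36e-05) and the synthase Has1 by 1.89 (SE 0.36, limma adjusted p = 0.00234), and 0 rose. Has2 differed by −0.98 ± 0.37, the hyaluronan receptor Cd44 by −0.89 ± 0.35, Hapln3 by 0.41 ± 0.20 and Has3 by 0.32 ± 0.67. Tnfaip6 ran from −0.49 to −0.03 in WT and from −3.09 to −2.10 in KO2, without overlap. None of the 7 passed on the normal diet (limma, 1 at an unadjusted p under 0.05).

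**Figure D4:**
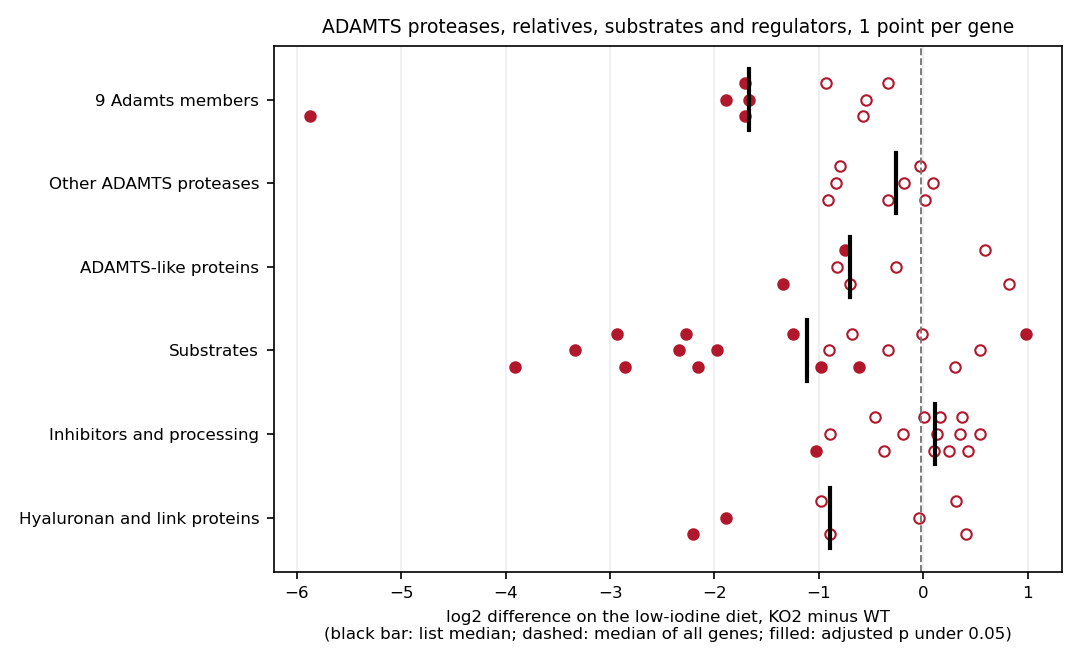
Log2 difference between KO2 and WT thyroid on the low-iodine diet, with 1 point per gene, for the 9 Adamts genes and 5 lists of related genes; filled points have an adjusted p under 0.05, black bars give the median of a list and the dashed line the median of all genes (−0.02). The medians of the 9 genes (−1.67) and of the substrates (−1.11) lie farthest below 0, and the other ADAMTS proteases hold no filled point.

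Some markers of other cell types moved with the low-iodine result, with members that fell past the threshold in 5 of 16 marker lists. Outside those 5 lists, Nkx2-1 of 6 follicular markers rose by 0.70. Calca of 4 C cell markers rose by 1.20 and Cd163 of 6 macrophage markers by 0.70. Of all genes 7.16% fell and 7.80% rose. Of 8 fibroblast markers 4 fell (Col1a1, Col1a2, Col3a1 and Col14a1) and 1, Dcn, rose, with a median of −1.79, and their summed level ran from 5.80 to 6.32 in WT and from 3.74 to 4.44 in KO2. Of 6 measured endothelial markers 4 fell (Pecam1, Cdh5, Tek and Tie1), with a median of −1.10 and summed levels of 4.86 to 5.09 in WT and 3.87 to 4.23 in KO2. Of 7 pericyte and smooth muscle markers 2 fell (Rgs5 and Cspg4) and 5 did not pass, with summed levels of 5.76 to 6.13 and 5.40 to 5.59. The 7 differences, 6 negative and 1 positive, ran from −1.22 to 0.72, with a median of −0.56. Of 8 cartilage markers 3 fell (Acan, Col2a1 and Cnmd) and 5 did not pass, with a median of −0.68 and summed levels of 4.14 to 4.50 and 3.14 to 3.65. Of 5 airway epithelium markers 2 fell (Foxj1 by 2.07 and Dnah5 by 3.25), with a median of −1.55 and summed levels of 2.15 to 3.53 in WT and 0.28 to 2.27 in KO2. These called markers, other than the collagens, Acan and Dcn that the substrate list shares, are named after their values were seen, and no marker of these 5 lists was below background on every low-iodine array. On the normal diet, where 1.41% of all genes passed, the same 4 fibroblast markers fell and 0 of 6 endothelial markers passed (limma, 0 also at an unadjusted p under 0.05). There 3 of 7 thymic epithelium markers also fell (median −1.54), as did 1 of 8 cartilage markers, and 0 of 5 airway markers passed (limma, 3 at an unadjusted p under 0.05, median −1.98). On that diet 2 of 6 follicular markers rose. The differences of all 7 skeletal muscle markers were negative on low iodine (median −1.80) and positive on the normal diet (median 2.34). None passed. The muscle mean ran from −4.42 to 5.73 over normal-diet arrays and from −3.02 to 2.35 over low-iodine arrays. The parathyroid mean was −0.996 in normal-diet KO2 replicate 3, against 2.61 to 3.64 on other normal-diet arrays. It was 0.218 in low-iodine KO2 replicate 1, against 2.36 to 2.98 on other low-iodine arrays. In bulk RNA, fewer cells of a type and less RNA per cell cannot be told apart, and the part of these cell types in the Adamts differences was not tested.

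Within groups, the 9 transcripts did not vary as 1 block. After each group mean was subtracted, the correlation over the 18 arrays was 0.638 between Adamts1 and Adamts9 and 0.652 between Adamts8 and Adamts12, while Adamts2 and Adamts12 gave −0.485, and the neighbours Adamts1 and Adamts5 gave −0.08. Adamts1 lies next to Adamts5, and Adamts8 next to Adamts15, in the GRCm38.p6 gene order, and the latter pair gave 0.366. Adamts9 varied with the mean of the pericyte markers (0.742), of the endothelial markers (0.727) and of the brown fat and adipocyte markers (0.687). With the mesothelial and thyroid capsule list, of which 1 gene was measured, Adamts5 gave 0.662 and Adamts10 0.573. Adamts2 gave 0.571 with the endothelial mean and Adamts8 −0.125. These are descriptions over arrays that share slides and scaling, and those of Adamts8 include normal-diet KO2 arrays not well above background.

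By the same measure, the genes most like each member were Blnk (0.905) and Mup5 (0.898) for Adamts8, and Lrg1 (0.834) and Dio2 (0.826) for Adamts9. Eng (0.806) and Gnai3 (0.801) came closest to Adamts1, Aatk (0.826) and Cldn5 (0.792) to Adamts2, and Smpd5 (0.843) and Nes (0.825) to Adamts4. Igsf6 (0.860) and Clec1b (0.817) came closest to Adamts5, and Slc9b2 (0.909) and Ep300 (0.868) to Adamts10. For Adamts12 they were Dtna (0.869) and Kcnd3 (0.860), and for Adamts15 Tkfc (0.795) and Oas2 (0.761). These are the 2 highest correlations of each member with the 17928 genes, clone and predicted-gene names left out, over 18 arrays in 4 groups. They are described without a test. Adamts4 was well above background on 0 of 5 WT and 1 of 5 KO2 normal-diet arrays, and Adamts8 on 2 of 5 KO2 ones. Their correlations thus include signals at background.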

How the data were processed

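Mouse thyroid RNA of 18 samples was read on single-colour Agilent arrays. Per the labels' protocols, amplification started from 50 ng of total RNA (Ovation Pico, NuGEN), and Cy3 was put on 5 ug of product. Signals were extracted with Agilent Feature Extraction 12 per the submitters' processing notes, release 12.0.0.7 (normal diet) or 12.0.3.1 (low iodine) per the file headers. The deposited processed signal is a linear intensity from which Agilent's software had subtracted background, and the authors' summary table holds the same intensity values with no further scaling or centring (ratio 1).

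Each value here is log2 of that intensity less the 75th percentile of its array. Control spots and spots with outlier flags were left out, spots of a probe averaged, probes kept that were clear of background on 4 or more of 18 arrays, and the brightest probe taken for each gene. Through accessions, 28223 of 41174 probes matched exactly 1 gene of the GRCm38.p6 table, and 12951 matched none or more than 1. Of the 41174 probes, 82 were flagged throughout on some array and were dropped. Saturation affected 0 spots. A model with 4 group means was fitted with limma 3.58.1 in R 4.3.3, tested on simulated data, and adjusted over 17928 genes (26518 probes for single probes). The 95% intervals are those of the fit and cover no multiple testing. The labels do not say whether the samples of a group came from separate mice or pools, so p-values measure only the spread between these samples, which may be technical.

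The 9 genes, the lists, the markers and the rule for names (all 9 and all other ADAMTS proteases, up to 6 of each list with the smallest p in either genotype contrast, and 2 most similar genes per member) were chosen with earlier results of these data known. Alternatives were other scalings, background corrections, filters, probe summaries, slide and replicate blocks, and leaving out each array. No source pairs WT with KO2 samples by replicate number, and the deviations of same-numbered arrays correlated from −0.04 to 0.32, so they were not taken as pairs.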

Additional observations from a re-analysis of the deposited data

Results flagged for a closer look

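In 4 of the 63 genes of the 9 proteases and the related lists, the genotype difference itself differed between the diets past the threshold of the fit over all genes, which 1.23% of all genes passed. For Adamts8 this difference of differences was −4.48 (limma adjusted p = 0.00488), for the fibrillin Fbn1 −2.32, for biglycan, Bgn, −1.85 and for the hyaluronan-binding Tnfaip6 −1.71. All 4 were more negative on low iodine, and each diet had its own slides and scanner. Among 36 groups of arrays, 9 genes in 4 groups, 0 held an array far enough from the others to be singled out.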

How the results depend on the processing

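Adamts2, Adamts4, Adamts8 and Adamts9 kept their low-iodine call under all 31 alternatives, with Adamts8 between −7.08 and −3.57, and 4 to 6 of the 9 genes passed. Adamts12 lost it in 4, the 3 arrays named above and the low-iodine arrays fitted alone (adjusted p = 0.0887). Adamts1 passed with quantile normalization alone (adjusted p = 0.046). Signs turned only on the normal diet, Adamts15 to −0.00843 without scaling (−0.00662 to 0.326 leaving out arrays, negative without KO2 replicate 2) and Adamts9 between −0.374 and 0.039 leaving out arrays, positive without KO2 replicate 1. The normal-diet differences of Adamts1, Adamts2, Adamts5, Adamts10 and Adamts12, which were not called, also moved by over 1.5 times when single arrays were left out.

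Of the 9, the interaction counted 2 with the replicate block, 4 with quantile normalization, 2 with normexp on median signals, 2 with a random slide effect and 1 to 3 leaving out arrays. On the normal diet it was 1 without scaling and 0 to 1 leaving out arrays. The ADAMTS-like count on low iodine was 1 with the slide block, the replicate block, median scaling, no scaling, normexp, no filter or the diet alone (1 to 3 leaving out arrays), and 1 on the normal diet with the slide block. Inhibitors on low iodine counted 2 with the slide block, a percentile over probes detected on all arrays, or no scaling, and 3 with quantile normalization (1 to 2 leaving out arrays), and on the normal diet 1 without scaling (0 to 1). Hyaluronan genes counted 4 and other ADAMTS proteases 1 on low iodine with quantile normalization, the latter 0 to 1 leaving out arrays on either diet. Substrates on the normal diet counted 1 with the replicate block, 0 with the diet alone and 1 to 5 leaving out arrays. Over all genes, low iodine counted 1635 with median scaling and 1676 with the diet alone against 2683, the normal diet 167 with the replicate block and 3 with the diet alone against 253 (124 to 679, the highest without KO2 replicate 4), and the interaction 85 with median scaling, 712 with quantile normalization and 131 without scaling against 221 (120 to 227). The causes of these changes were not tested. The replicate block changed no other count by over 1.5 times.

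Without scaling the median of all genes shifted to −0.285 on low iodine, −0.106 on the normal diet and −0.151 in the interaction, and 86.5% of low-iodine calls were lower in place of 47.9%, 90.6% in place of 63.6% on the normal diet and 89.3% in place of 70.1% in the interaction (73.7% and 60% in the last 2 with median scaling, 60.1% in the interaction with quantile normalization). It was 0.127 on low iodine and 0.134 in the interaction with median scaling, and −0.132 in the interaction with normexp. Normexp on mean signals, planned at first, was not run, since median signals were the column used here, an alternative chosen after seeing the data. Adamts4 on the normal diet and the second Adamts9 probe are limited by signal over background.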
